A study of Mus musculus with 31 samples.

Results

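Transcript levels of T cells exposed for 3 h to the peptide neuromedin U (NmU) were set against those of cells exposed to phosphate-buffered saline (PBS) for the same time. The comparison used 7 of the 31 arrays of the study, the 3 titled as neuromedin at 3 h and the 4 titled as PBS at 3 h. All arrays, controls included, held total RNA of D10.G4.1 cells, a mouse CD4+ helper T cell clone of type 2 (Th2), so that every value describes 1 clone in culture. The study sampled NmU and PBS cultures at 0.8, 3, 6 and 12 h. Arrays of the other times enter where an effect at 3 h was compared with them. They also enter the standard errors and p-values at 3 h, because the estimate of spread was shared by all 31 arrays. The labels give no dose of NmU, no batch, and no statement of whether replicates were separate cultures. A p-value therefore reflects how far the 31 samples spread within their groups, and part of that spread may be technical.

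NmU is a neuropeptide that acts on G protein-coupled receptors, of which Nmur1 is the one known from lymphocytes. Receptors of this kind raise intracellular calcium, which activates the phosphatase calcineurin and moves NFAT factors to the nucleus, where they act together with AP-1 on cytokine genes. Th2 cells are defined by Il4, Il5 and Il13, cytokines of allergy and of defence against worms, and also release chemokines, small secreted proteins that attract other leukocytes. Genes of such a response are commonly grouped as immediate early genes, which need no new protein to be transcribed, and the secreted products that follow them.

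Of the genes that mark this comparison, Il4 and Ccl1 were higher with NmU and Myb was lower. The 250 bases upstream of their annotated starts, from RefSeq on GRCm38.p6, are shown because they set a gene with a dense cluster of one motif beside one with few. Capitals mark matches on either strand to GGAAAA, the core recognised by NFAT, and to a general NF-kB pattern (GGGA, any 4 bases, then CC), and each window reads 5′ to 3′ on the minus strand towards the start.
Il4, 1 of its 2 annotated starts (chr11:53618666-53618915): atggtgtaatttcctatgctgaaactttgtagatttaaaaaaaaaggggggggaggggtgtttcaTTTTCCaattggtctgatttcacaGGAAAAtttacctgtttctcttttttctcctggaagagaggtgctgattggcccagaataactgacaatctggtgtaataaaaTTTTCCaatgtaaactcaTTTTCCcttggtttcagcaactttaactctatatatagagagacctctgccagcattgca
Ccl1 (chr11:82179813-82180062): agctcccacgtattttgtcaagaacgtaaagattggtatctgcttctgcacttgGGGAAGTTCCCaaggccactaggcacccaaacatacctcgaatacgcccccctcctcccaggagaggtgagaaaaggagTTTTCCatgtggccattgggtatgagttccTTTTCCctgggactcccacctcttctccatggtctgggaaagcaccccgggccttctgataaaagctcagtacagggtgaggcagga
Myb (chr10:21160985-21161234): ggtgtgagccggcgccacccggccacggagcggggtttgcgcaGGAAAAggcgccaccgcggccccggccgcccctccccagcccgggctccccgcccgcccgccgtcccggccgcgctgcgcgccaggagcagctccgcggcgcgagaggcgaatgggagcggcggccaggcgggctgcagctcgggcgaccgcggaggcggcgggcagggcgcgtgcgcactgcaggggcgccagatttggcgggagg
The Il4 window held 4 NFAT cores, at 185, 161, 78 and 60 bases before the start, and the window of the other Il4 start (chr11:53617339-53617588) held no match to any motif searched. The Ccl1 window held NFAT cores at 117 and 87 bases and a pair of overlapping NF-kB matches at 196 and 195 bases. Myb had 1 NFAT core, at 207 bases. An NFAT core was present in 20.4% of all 32851 such windows and an NF-kB match in 17.6%, so that single matches are frequent. Counted by gene, with any window, the NFAT core was found in 22.9% of 27025 genes, in 8 of the 20 matched among the 25 genes with the largest rise, and in 7 of the 21 matched among the 25 with the largest fall. The NF-kB pattern was found in 19.7% of genes, in 4 of those 20 and in 9 of those 21. The AP-1 motif TGANTCA (7.82% of genes) was in 1 and 3, the CHR motif TTTGAA of cell cycle genes (18.3%) in 3 and 2, and the cyclic AMP element TGACGTCA (1.77%) and the EGR motif GCGTGGGCG (0.622%) in 0 and 0. A match is a string of letters and does not show that a factor binds.

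Values below are deposited signal intensities, given array by array in the order of replicates 1 to 4 for PBS and 1 to 3 for NmU, and arrays are named by treatment and replicate number. Changes are log2 fold changes of NmU over PBS with their standard error from limma, after signals below 5.8 were raised to that floor. A gene was called when its Benjamini-Hochberg adjusted p was under 0.05 both with all arrays and, in the same direction, without PBS 4. That array stood apart. Its correlation with the other PBS arrays was 0.951 to 0.960 across probe sets, against 0.965 to 0.976 among PBS 1 to 3 and 0.975 to 0.977 among the NmU arrays, and its signal lay over 2-fold from the mean of PBS 1 to 3 in 432 probe sets, 340 of them below it. Deposited signals had been scaled to a common mean (2% trimmed means of 150.095 to 150.113), so each change is measured against the total signal of its array. Because RNA came from whole cultures, fewer cells with a transcript and less transcript per cell cannot be told apart.

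NmU raised 234 of 5681 tested genes (4.12%) and lowered 329 (5.79%) at 3 h. The rises were the larger changes. A change of at least 2-fold was seen in 58 genes called higher and 43 called lower, at least 4-fold in 12 and 3, and at least 8-fold in 4 and 0. The median fold was 1.61 among genes called higher and 1.51 among those called lower. Across all tested genes the median log2 fold change was -0.04 (-0.05 without PBS 4), the background for each group median below. The shares of 4.12% and 5.79% are the background for each count of called genes in a list. In 482 genes (8.48%) every NmU array lay above every PBS array, and in 695 (12.2%) every NmU array lay below. Of the genes called, 215 of 234 higher and 303 of 329 lower had groups that did not overlap. By probe set, 313 of 7603 (4.12%) were called higher and 388 (5.10%) lower. With arrays scaled to a common median in place of the mean the lower calls fell to 201 and the higher to 271, which turned the share of higher calls from 44.7% to 57.4%. With only these 7 arrays in the model, 118 and 68 probe sets were called, of which 114 and 61 were among the 313 and 388.

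**Figure D1:**
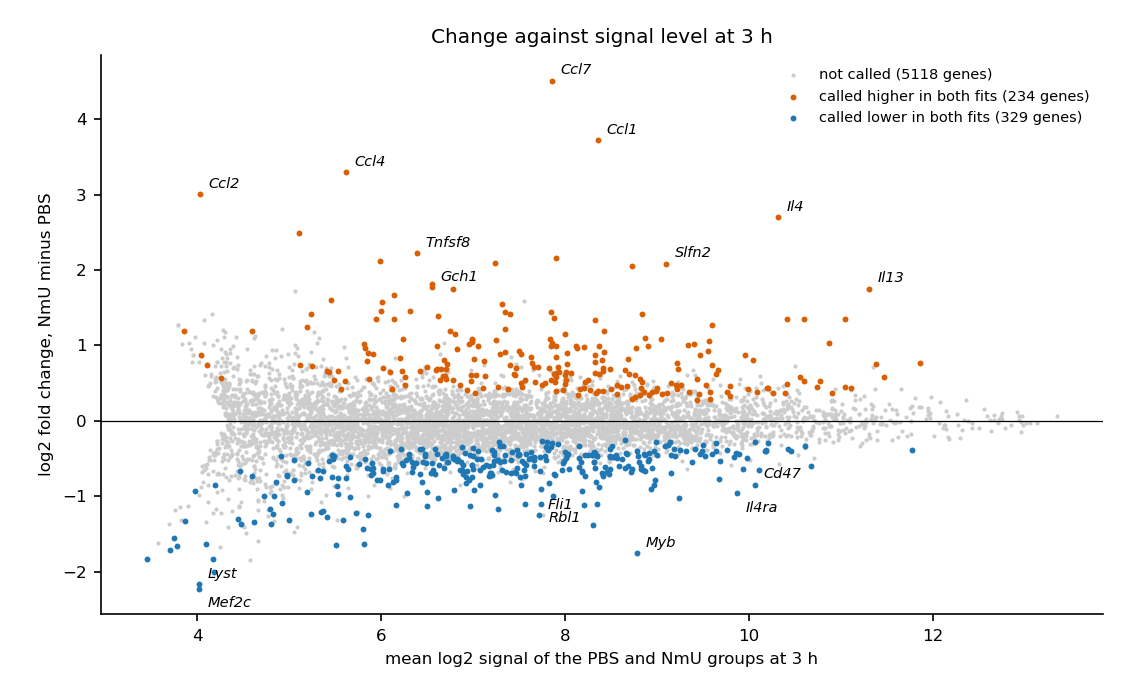
Log2 fold change of NmU over PBS at 3 h (vertical axis) against the mean log2 signal of both groups (horizontal axis), 1 point per tested gene, with the 234 genes called higher in orange, the 329 called lower in blue and the rest in grey. The chemokines Ccl7, Ccl1, Ccl4 and Ccl2 and the cytokine Il4 are the highest of the labelled points, while Myb is a fall at a high signal and Mef2c and Lyst are falls at the dim end.

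With 1 probe set per gene, the brightest, and the floor at 5.8, the 4 largest rises at 3 h were those of chemokines. With the floor at 20.2 the rise of Ccl2 was 1.20, which is below that of Il4. Of 23 on the array, 9 passed the signal filter. Of these 9, 6 rose and 0 fell, with a median change of 2.11, or of 1.20 with 5 called when the floor was 20.2. The filter asked for a mean above 20.2 in either group. Ccl2 and Ccl4, with mean PBS signals of 2.6 and 17.7, passed it only through their NmU arrays. Chemokines dim in both groups were left out, so the count and the median describe these 9 genes alone. Ccl7, which attracts monocytes and eosinophils, gave signals of 81.3, 69.7, 70.4 and 13.8 in PBS and 1397, 979 and 985 with NmU. The groups did not overlap, and PBS 4 lay far below the other PBS arrays. The rise was 4.51 ± 0.38 (adjusted p = 4.68e-09) and 3.91 without PBS 4. Ccl1, the ligand of the receptor Ccr8, gave 141, 91.3, 88.7 and 57.6 in PBS and 1569, 1033 and 1039 with NmU. Each NmU array was several times brighter than any PBS array. Its change was 3.72 ± 0.29 (adjusted p = 1.65e-09), and a dimmer probe set of the same gene rose by 1.96. Ccl2, a monocyte chemokine, read 1.4, 3.1, 2.0 and 3.9 in PBS and 76.5, 36.9 and 35.5 with NmU. All 4 PBS arrays were below the floor, so the rise was at least 8.01-fold (adjusted p = 1.05e-07).

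Ccl4 and Ccl3, which attract monocytes and T cells, also rose. Ccl4 gave 34.6, 13.2, 12.1 and 10.8 in PBS and 180.2, 169.9 and 119.6 with NmU, without overlap, a rise of 3.30 ± 0.41 (adjusted p = 2.69e-06). Ccl3 gave 38.5, 24.4, 35.5 and 25.9 in PBS and 160.0, 127 and 114 with NmU, a rise of 2.11 ± 0.32 (adjusted p = 4.09e-05). Cxcl2, which attracts neutrophils, was dim on every array, and its rise of 0.88 ± 0.27 had an adjusted p of 0.0335. The other tested chemokines did not pass: Ccl5 changed by 0.24 ± 0.30, with PBS 4 as its brightest array at 249.5, Ccl22 by -0.13 ± 0.22 and Ccl6 by -0.54 ± 0.46. Cxcl2 was not called with only the 7 arrays in the model or with the floor raised to 20.2 or with no filter on dim probe sets. Cxcl2 (adjusted p of up to 0.187) was lost when any 1 array other than PBS 4 was left out.

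Most of the tested Th2 cytokines rose. Of 8 on the array 7 were tested; 6 rose, 0 fell, and the median change was 1.74 (1.44 without PBS 4). Il4, the cytokine that defines the Th2 type, gave signals of 595, 464, 537 and 423 in PBS and 3987, 2895 and 2971 with NmU. The lowest NmU array was several times brighter than the highest PBS array. The rise was 2.70 ± 0.11 (adjusted p = 3.81e-15), the lowest p among the genes named here. Of the other Il4 probe sets 1 rose by 4.11, and 2 with changes of 1.10 and 0.25 were not called. Il13, which shares a receptor chain with Il4 and acts on epithelium, gave 1486, 1253, 1336 and 1439 in PBS and 5223, 4049 and 4713 with NmU. The arrays within each group were close, and the change was 1.75 ± 0.15 (adjusted p = 6.08e-09). Il5, the growth factor of eosinophils, gave 65, 51.4, 58.6 and 66.1 in PBS and 389.6, 154 and 136 with NmU. NmU 1 was well above the other NmU arrays, all of which exceeded the PBS arrays, and the rise was 1.74 ± 0.26 (adjusted p = 3.12e-05).

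Il10, which restrains inflammation, gave 1573, 1221, 1551 and 1027 in PBS and 3543, 3246 and 3286 with NmU and rose by 1.34 ± 0.13 (adjusted p = 4.84e-08). Il6, a cytokine of many targets, gave 787, 877, 1049 and 737 in PBS and 2367, 2109.9 and 2076 with NmU and rose by 1.35 ± 0.13 (adjusted p = 5.55e-08). Neither gene had overlapping groups. Il3, a growth factor of mast cells and basophils, gave 144, 98.8, 106 and 18.7 in PBS and 507, 290.0 and 206 with NmU. PBS 4 was the dimmest PBS array by a wide margin, and the rise of 2.10 ± 0.44 (adjusted p = 0.00194) was 1.44 without it. Il9 gave 24.4, 31.2, 43.7 and 36 in PBS and 38.4, 43.3 and 41.5 with NmU, with overlapping groups and a change of 0.31 ± 0.30 that did not pass (adjusted p = 0.573). Relative to the mean of PBS 1 to 3, the mean log2 signal of the 7 tested genes was -0.468 on PBS 4 and 1.82, 1.37 and 1.3 on the NmU arrays. Il5 and Il3 were not called with only the 7 arrays in the model.

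**Figure D2:**
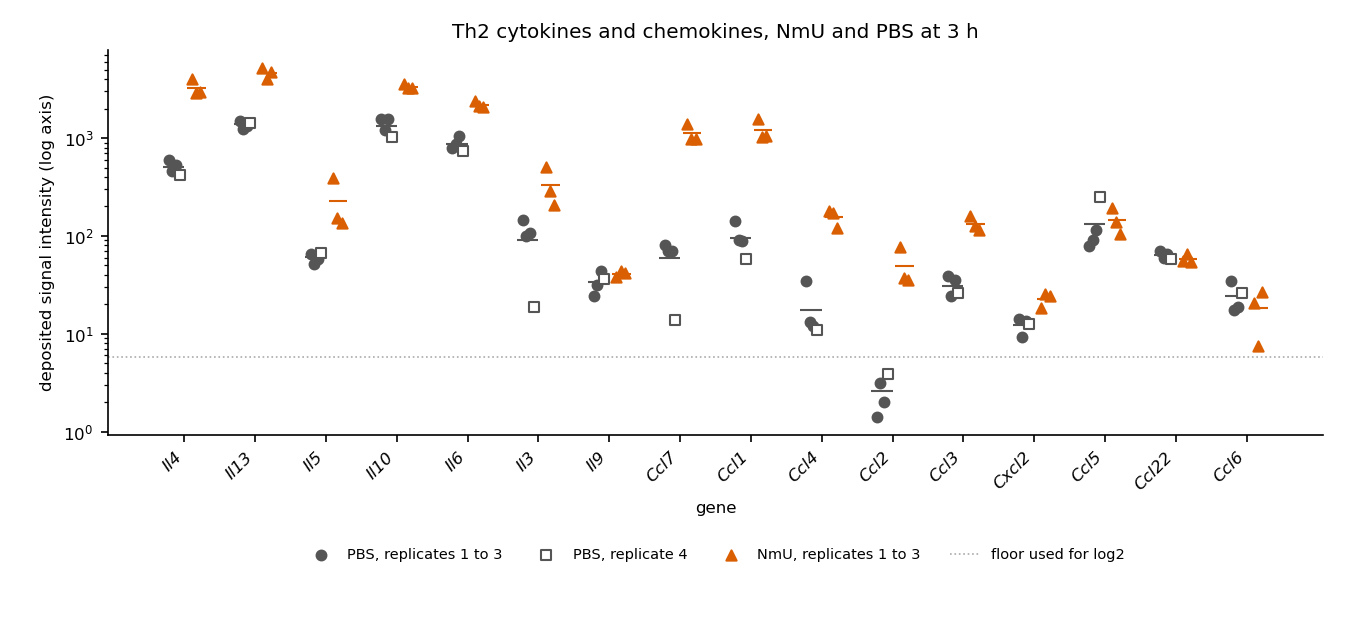
Deposited signal intensity (log axis) of the 7 tested Th2 cytokines and the 9 tested chemokines on each array at 3 h; filled circles are PBS replicates 1 to 3, open squares PBS replicate 4, triangles the 3 NmU arrays, bars the group means, and the dotted line the floor of 5.8 used before log2. The 12 genes called higher have every NmU triangle above every PBS symbol, whereas Il9, Ccl5, Ccl22 and Ccl6 overlap, and the open square is low for Il3 and Ccl7.

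Other secreted and membrane ligands changed in both directions. Of 22 on the array 9 were tested; 3 rose and 1 fell, with a median of 0.43. Tnfsf8, the CD30 ligand, gave 36.3, 29.7, 50.6 and 41.4 in PBS and 153, 233 and 167 with NmU, without overlap, and rose by 2.23 ± 0.21 (adjusted p = 4.84e-08). Tnf, the inflammatory cytokine, gave 102, 106, 64.3 and 136 in PBS and 239, 321 and 253 with NmU and rose by 1.44 ± 0.24 (adjusted p = 0.000124). Tnfsf11, the ligand RANKL that drives osteoclast formation, gave 46.2, 42.2, 38.6 and 95.4 in PBS and 122, 111 and 98.4 with NmU. PBS 4 was higher there than the other PBS arrays, and the rise was 1.09 ± 0.22 with it and 1.38 without it (adjusted p = 0.00115 and 2.64e-06). Il16, a ligand of CD4, gave 77.8, 78.8, 77.7 and 56.9 in PBS and 28.2, 44.4 and 36.3 with NmU and fell by 1.02 ± 0.15 (adjusted p = 4.23e-05), with no overlap. Penk, the enkephalin precursor, changed by -0.06 ± 0.12 and Tgfb1 by 0.43 ± 0.15, and neither passed. Tnfsf11 was not called with only the 7 arrays in the model.

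Receptors for these ligands gave 1 gene higher and 1 lower in each list, which for the cytokine receptor chains is close to the shares of all genes (4.12% and 5.79%). Among chemokine receptors 15 were on the array and 6 tested; 1 rose, 1 fell, and the median was -0.02. Ccr8, the receptor of Ccl1 and a receptor found on Th2 cells, gave 209, 182, 187 and 97.5 in PBS and 311, 323 and 363 with NmU and rose by 1.03 ± 0.22 (adjusted p = 0.00238). Cxcr4, the receptor that retains lymphocytes in marrow and tissue, gave 67.7, 138, 78.7 and 86.4 in PBS and 33.3, 39.8 and 39.7 with NmU, without overlap, and fell by 1.25 ± 0.26 (adjusted p = 0.00182). Ccr1, a receptor of Ccl3 and Ccl7, changed by 0.58 ± 0.17 and passed with all arrays (adjusted p = 0.0277) but not without PBS 4 (0.068). Of 30 cytokine receptor chains on the array 19 were tested; 1 rose, 1 fell, and the median was -0.11. Il4ra, the chain through which Il4 and Il13 signal, gave 1702, 1340.2, 1421 and 889.6 in PBS and 625, 652 and 739 with NmU. No NmU array reached the lowest PBS array, PBS 4, and the fall was 0.96 ± 0.17 (adjusted p = 0.000394). A second Il4ra probe set changed by -0.06 and was not called. Il12rb1, a receptor chain for Il12, rose by 0.62 ± 0.12 (adjusted p = 0.000881), while Il2ra and Il1r2 changed by -0.19 ± 0.13 and -0.22 ± 0.12 without passing. Ccr8, Cxcr4, Il4ra and Il12rb1 were not called with only the 7 arrays in the model, nor was Il4ra with the probe sets of a gene averaged.

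Of the immediate early genes 11 of 23 tested were higher at 3 h. Of 27 on the array 23 were tested; 11 rose (Egr2, Fosl1, Nr4a1, Tiparp, Zfp36l1, Btg1, Ier3, Ier2, Atf3, Mafk and Junb), 0 fell, and the median was 0.70. Leaving out single arrays gave between 8 and 13 called of the 23, the 13 in the fit without PBS 4 alone. Egr2, a zinc finger factor induced by antigen receptor signals, gave 148, 119, 112 and 83.3 in PBS and 593, 409 and 527 with NmU and rose by 2.15 ± 0.37 (adjusted p = 0.000223). Nr4a1, an orphan nuclear receptor, gave 42.8, 35.1, 56.1 and 63 in PBS and 165, 140.0 and 99.1 with NmU and rose by 1.46 ± 0.33 (adjusted p = 0.00353). Both had groups that did not overlap. Fosl1, an AP-1 subunit, gave 39, 28.8, 40.5 and 42.3 in PBS and 127, 104 and 105 with NmU and rose by 1.58 ± 0.22 (adjusted p = 1.63e-05). Tiparp, a poly(ADP-ribose) polymerase, gave 137, 276, 153 and 65.3 in PBS and 288, 372 and 507 with NmU and rose by 1.44 ± 0.31 (adjusted p = 0.00221). Zfp36l1, which destabilises messenger RNA, and Btg1, an antiproliferative gene, rose by 1.35 ± 0.21 and 0.99 ± 0.12. Egr1 gave 141, 111, 113 and 78.1 in PBS and 282, 323 and 379 with NmU, without overlap, but its change of 1.59 ± 0.48 passed with all arrays (adjusted p = 0.0308) and not without PBS 4 (0.0701), and it was called with only the 7 arrays in the model, with array weights and with the filter at 100. Fos changed by 1.18 ± 0.48 (adjusted p = 0.117) and Jund and Klf6 by 0.42 ± 0.17 and 0.35 ± 0.11, and none of these was called. Under alternatives Fos was called with only the 7 arrays, Jund in the fit without PBS 4 alone, with the replicate block and without NmU 2, and Klf6 with array weights and in the fit of all arrays alone. Tiparp was not called with only the 7 arrays in the model. Tiparp (adjusted p of up to 0.0561) was lost without PBS 1 or NmU 3.

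Regulators that dampen signalling gave 4 genes higher and 1 lower. Of 19 on the array 17 were tested. Of these 4 rose and 1 fell, beside 4.12% and 5.79% of all genes, and the median was 0.31. Gem, a small GTPase that restrains calcium channels, gave 7.2, 27.7, 22.8 and 10 in PBS and 81.4, 82.6 and 82.2 with NmU and rose by 2.49 ± 0.35 (adjusted p = 1.76e-05). Its NmU arrays were almost equal, while the PBS arrays spread. Dusp6, a phosphatase of the kinase ERK, gave 1389, 1285, 1348 and 1243 in PBS and 2449, 2648 and 2953 with NmU and rose by 1.02 ± 0.13 (adjusted p = 2.34e-06). The phosphatases Dusp2 and Dusp16 rose by 0.79 ± 0.19 and 0.62 ± 0.14, and Rgs14, which shortens G protein signals, fell by 0.40 ± 0.11. Socs1 and Socs2, inhibitors of cytokine signalling, did not pass, at -0.28 ± 0.14 and -0.19 ± 0.12. Nab2, a corepressor of Egr factors outside this list, gave 117, 108, 89 and 101 in PBS and 295, 248 and 287 with NmU and rose by 1.42 ± 0.17 (adjusted p = 1.48e-06). Dusp16 and Rgs14 were not called with only the 7 arrays in the model, nor was Rgs14 with arrays scaled to a common median. Dusp16 (adjusted p of up to 0.0776) was lost without PBS 1, PBS 3, NmU 2 or NmU 3, and Rgs14 (adjusted p of up to 0.0993) without PBS 1, NmU 1 or NmU 2.

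Signalling genes downstream of a G protein-coupled receptor gave 2 calls higher and 2 lower over 3 lists. The NFAT and calcineurin list and the cyclic AMP list had 1 each way, which is above the shares of all genes (4.12% and 5.79%) but is 1 gene a list. Of 25 G protein, phospholipase and protein kinase C genes on the array 23 were tested; 0 were called higher or lower by limma (5 at an unadjusted p under 0.05 with all arrays, and 2 lower after adjustment in the fit without PBS 4 alone), and the median was -0.13, with Gnas at -0.03 ± 0.12 and Gnai2 at -0.20 ± 0.09. Of 12 NFAT and calcineurin genes on the array 11 were tested; 1 rose and 1 fell, with a median of -0.21. Nfatc1, an NFAT factor that is induced by NFAT itself, gave 79.3, 113, 86.7 and 74 in PBS and 185, 157 and 215 with NmU and rose by 1.08 ± 0.18 (adjusted p = 0.000171). Ppp3cc, a catalytic calcineurin subunit, gave 42, 56.2, 41.2 and 37 in PBS and 36, 17.8 and 25.4 with NmU and fell by 0.78 ± 0.18 (adjusted p = 0.00405). For both genes the groups did not overlap. Ppp3ca and Ppp3r1, other calcineurin subunits, did not pass, at -0.22 ± 0.16 and -0.21 ± 0.13. Among cyclic AMP genes 16 were tested; 1 rose, 1 fell, and the median was 0.10. Crem, a factor of the CREB family with an inducible repressor form, gave 213, 172, 181 and 252 in PBS and 568, 481 and 491 with NmU and rose by 1.34 ± 0.12 (adjusted p = 1.25e-08), and its second probe set rose by 1.19. Prkacb, a catalytic subunit of protein kinase A, gave 633, 785, 719 and 770.0 in PBS and 432, 451 and 460.2 with NmU and fell by 0.69 ± 0.11 (adjusted p = 5.68e-05). Ppp3cc was not called with only the 7 arrays in the model. Ppp3cc (adjusted p of up to 0.0629) was lost without NmU 2.

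Of the NF-kB genes 6 of 19 tested were higher. Of 21 on the array 19 were tested; 6 rose, 0 fell, and the median was 0.23. Relb, a subunit of the alternative pathway, gave 91.3, 73.3, 98.8 and 88.3 in PBS and 171, 180.1 and 202 with NmU and rose by 1.07 ± 0.15 (adjusted p = 1.90e-05). Nfkbia, the inhibitor that NF-kB itself induces, gave 580.3, 421, 545 and 663 in PBS and 995, 1033 and 1086 with NmU and rose by 0.93 ± 0.14 (adjusted p = 6.13e-05), with 0.89 at its second probe set. Neither had overlapping groups. The adaptors Tank, Traf5 and Bcl10 rose by 0.80 ± 0.14, 0.75 ± 0.10 and 0.61 ± 0.09, and the subunit Nfkb2 by 0.64 ± 0.19. Rela and Bcl3 changed by 0.21 ± 0.16 and -0.05 ± 0.13 and did not pass. The fits without PBS 4 and without NmU 1 each called 1 gene of the list lower. Tank, Bcl10 and Nfkb2 were not called with only the 7 arrays in the model. Nfkb2 (adjusted p of up to 0.155) was lost without PBS 1, NmU 1 or NmU 3.

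In the T cell receptor apparatus 7 adaptors, kinases and phosphatases rose, and the tested CD3 chains did not pass. Of 31 genes on the array 26 were tested; 7 rose (Lcp2, Sh2d2a, Tec, Fyn, Zap70, Ptpn22 and Ptpn6), 0 fell, and the median was 0.13. Lcp2, the adaptor SLP-76, gave 209, 275, 259 and 179 in PBS and 454, 516 and 594 with NmU and rose by 1.19 ± 0.15 (adjusted p = 3.72e-06). Zap70, the kinase that binds the phosphorylated receptor, gave 2085, 1822, 1960.1 and 2345 in PBS and 4057, 3029 and 3359 with NmU and rose by 0.76 ± 0.11 (adjusted p = 2.56e-05). In both genes each NmU array was above each PBS array. Sh2d2a, an adaptor of Lck, rose by 1.0 ± 0.12, Tec kinase by 0.99 ± 0.19, Fyn kinase by 0.81 ± 0.18 and the phosphatase Ptpn22 by 0.62 ± 0.13. Cd3d and Cd3g changed by -0.02 ± 0.14 and -0.20 ± 0.13 (adjusted p = 0.957 and 0.374). With only the 7 arrays in the model 3 of the 26 were called. Tec, Fyn and Ptpn22 were not called with only the 7 arrays in the model.

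Co-stimulatory and inhibitory receptors had more genes called higher than lower. Of 27 on the array 20 were tested. Of these 4 rose and 1 fell, beside 4.12% and 5.79% of all genes, and the median was 0.02. Ctla4, the inhibitory receptor for B7 ligands, gave 234, 396, 256 and 78.7 in PBS and 754, 1093 and 778 with NmU. PBS 4 was the dimmest array, and the rise was 2.05 ± 0.34 with it and 1.58 without it (adjusted p = 0.000133 and 0.000136). Lilr4b gave 42.8, 42.6, 46.1 and 29.8 in PBS and 123, 145 and 112 with NmU and rose by 1.66 ± 0.15 (adjusted p = 1.87e-08). Whether its probe set also reads a close paralog was not tested. Cd44, an adhesion receptor of activated T cells, gave 37, 75.5, 83.3 and 58.1 in PBS and 186, 174 and 126 with NmU and rose by 1.40 ± 0.26 (adjusted p = 0.000491). Lag3, an inhibitory receptor, rose by 0.47 ± 0.12 and Cd48, a ligand of the receptor 2B4, fell by 0.45 ± 0.13. Icos gave 2787, 2809, 3089 and 1669.5 in PBS and 2509, 2858 and 2587 with NmU and did not pass, nor did Cd52, at -0.02 ± 0.09. Ctla4, Cd44, Lag3 and Cd48 were not called with only the 7 arrays in the model, nor was Cd48 with arrays scaled to a common median or with no filter on dim probe sets or after quantile normalization. Lag3 (adjusted p of up to 0.0969) was lost without PBS 1, PBS 3, NmU 1 or NmU 3, and Cd48 (adjusted p of up to 0.199) when any 1 array other than PBS 4 was left out.

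Mef2c and Myb had the largest falls among transcription factors of the T lineage. Of 37 on the array 34 were tested; 5 rose (Bcl6, Id2, Stat5a, Gfi1 and Gata3), 5 fell (Mef2c, Myb, Fli1, Elf1 and Irf4), and the median was 0.08. Myb, a factor of lymphoid progenitors and cycling cells, gave 647, 905, 828 and 899 in PBS and 259, 229.7 and 232 with NmU. The NmU arrays were close to each other and far below every PBS array. The fall was 1.76 ± 0.13 (adjusted p = 8.96e-10). Fli1, an ETS factor, gave 356, 325, 384 and 251 in PBS and 115, 162 and 136 with NmU and fell by 1.25 ± 0.14 (adjusted p = 7.03e-07), without overlap. Irf4, a factor needed for Th2 differentiation, gave 1346, 1098, 1272 and 1169 in PBS and 895, 737 and 723 with NmU and fell by 0.64 ± 0.12 (adjusted p = 0.000632). Mef2c, a MADS-box factor, gave 39.3, 21.2, 39.6 and 46.6 in PBS and 3.9, 7.4 and 9.9 with NmU and fell by 2.23 ± 0.35 (adjusted p = 7.59e-05), at signals close to the floor. Elf1, another ETS factor, fell by 0.75 ± 0.23.

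Bcl6, the repressor that directs follicular helper cells, rose by 1.60 ± 0.37 from signals of 37.9, 33.7, 35 and 9.1 in PBS and 47.4, 93.8 and 101 with NmU. PBS 4 was far below the other PBS arrays, and without it the rise was 1.11 (adjusted p = 0.00413 with it and 0.0101 without it). Satb1 and Cbfb did not pass, at 0.04 ± 0.15 and 0.16 ± 0.08. Single arrays decided the rises in this group. With 1 array left out between 1 and 5 of the 34 were called higher: 1 without NmU 3, 2 without PBS 1, PBS 3 or NmU 1 and 3 without NmU 2. With only the 7 arrays 0 were. Irf4, Elf1 and Bcl6 were not called with only the 7 arrays in the model, Mef2c with the floor raised to 20.2, and Elf1 with no filter on dim probe sets. Elf1 (adjusted p of up to 0.156) was lost without PBS 1, PBS 2, PBS 3, NmU 1 or NmU 2, and Bcl6 (adjusted p of up to 0.067) without NmU 2 or NmU 3.

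**Figure D3:**
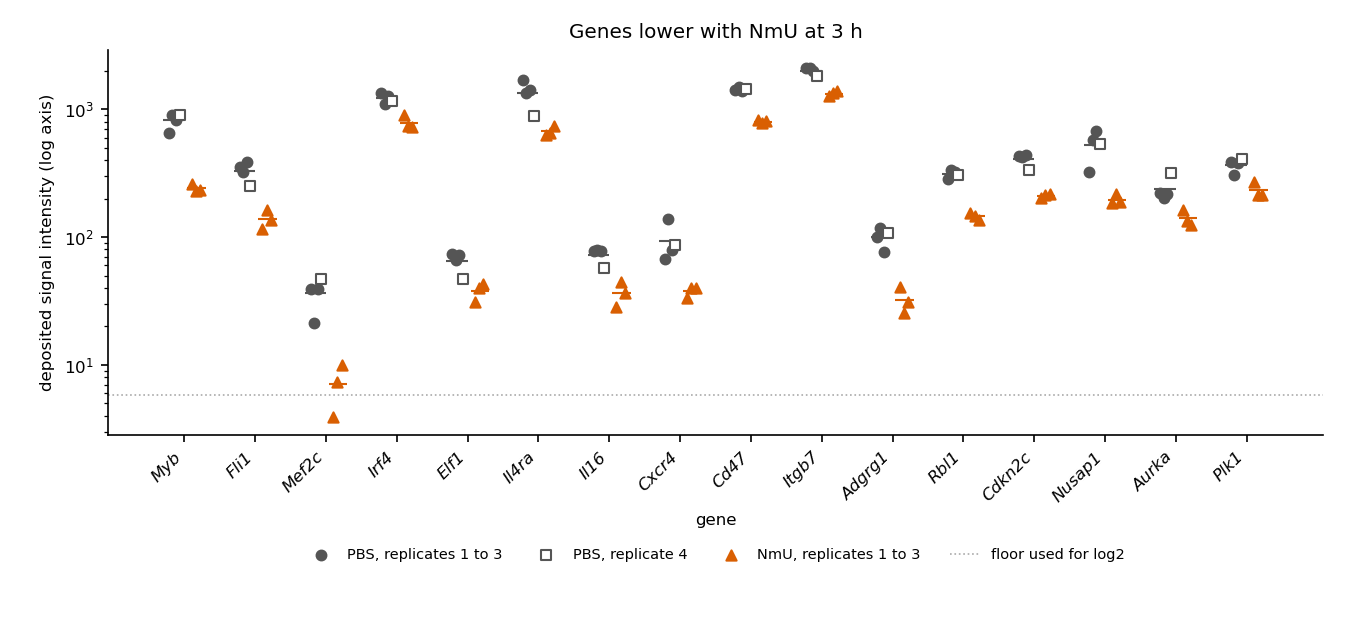
Deposited signal intensity (log axis) of 16 genes called lower with NmU at 3 h, on each array; filled circles are PBS replicates 1 to 3, open squares PBS replicate 4, triangles the 3 NmU arrays, bars group means, and the dotted line the floor of 5.8. In all 16 genes drawn the NmU triangles lie below the PBS symbols, with a wide gap for Myb and Rbl1 and a narrow one for Elf1.

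Adhesion and migration genes changed in both directions. Of 35 on the array 25 were tested; 3 rose (Alcam, Cd44 and Itgav), 5 fell (Adgrg1, Cd47, Itgb7, Icam2 and Selplg), and the median was -0.25. Falls also outnumbered rises among all genes (5.79% and 4.12%), and the list had 3 of each with a common median and without PBS 3, NmU 1 or NmU 3. Alcam, the ligand of CD6, gave 102, 132, 108 and 51.6 in PBS and 271, 271 and 278 with NmU and rose by 1.55 ± 0.20 (adjusted p = 6.59e-06). Adgrg1, an adhesion G protein-coupled receptor, gave 99.5, 119, 75.8 and 108 in PBS and 41, 25.3 and 31 with NmU and fell by 1.64 ± 0.18 (adjusted p = 4.40e-07). Groups were apart for both. Cd47, a signal against engulfment, gave 1404, 1497, 1391 and 1449 in PBS and 818, 775 and 802 with NmU and fell by 0.85 ± 0.11 (adjusted p = 7.10e-06), with -0.89 at its second probe set. Itgb7, the beta chain of gut-homing integrins, gave 2105, 2103, 1985 and 1833 in PBS and 1264, 1330.2 and 1379 with NmU and fell by 0.60 ± 0.11 (adjusted p = 0.000341). Itgav, an integrin alpha chain, rose by 0.55 ± 0.11, and its other probe sets were not called. Itgav was not called with only the 7 arrays in the model or with the probe sets of a gene averaged.

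Among the remaining large rises were genes of diverse function. Slfn2, a Schlafen gene tied to T cell quiescence, gave 373, 252, 318 and 169 in PBS and 1115, 1132 and 1147 with NmU. The NmU arrays were nearly equal and PBS 4 was the lowest array, and the rise was 2.08 ± 0.19 (adjusted p = 2.21e-08), with 2.38 at its second probe set. The other tested Schlafen genes, Slfn1 and Slfn4, changed by 0.72 ± 0.23 and 0.57 ± 0.36 and were not called. Gch1, the first enzyme of tetrahydrobiopterin synthesis, gave 51, 51.9, 51.4 and 49.4 in PBS and 201, 163 and 160.2 with NmU and rose by 1.77 ± 0.10 (adjusted p = 1.54e-12). Srxn1, which restores oxidised peroxiredoxins, gave 46.9, 42.3, 61.8 and 52.1 in PBS and 164, 178 and 189.6 with NmU and rose by 1.82 ± 0.17 (adjusted p = 3.55e-08). Both had tight PBS groups and no overlap. All 25 genes with the largest rise had groups that did not overlap, where 8.48% of all genes had every NmU array above every PBS array. They were picked by their change on these same arrays, so this is no separate support. Of the 25, 20 kept their call wherever tested, with Gem and Ccl2 tested under 17 alternatives and the rest of the 20 under 18. The other 5 (Il3, Ctla4, Il5, Bcl6 and Tiparp) were lost with only the 7 arrays in the model.

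The largest falls lost their call under an alternative more often than the largest rises, of which 5 of 25 did. Of the 25 genes with the largest fall 7 kept their call wherever tested (Lpin1, Myb, Adgrg1, Aak1, Nusap1, Fli1 and Stil). Lpin1, Adgrg1, Aak1 and Stil were tested under 17 alternatives and the rest of these under 18, as a filter at 100 left out dim genes. The other 18 were lost in at least 1: 13 with only the 7 arrays, 10 with 1 array left out, 10 with the floor raised to 20.2 and 3 with a common median. Lpin1, a phosphatidate phosphatase of lipid synthesis, gave 41.2, 32.3, 36.9 and 35.7 in PBS and 7.0, 17.8 and 5.9 with NmU and fell by 2.01 ± 0.33 (adjusted p = 0.000117), or by 0.85 with the floor raised to 20.2. Aak1, a kinase of clathrin-coated vesicles, gave 90.1, 131, 93.3 and 64.2 in PBS and 40.8, 32 and 30.1 with NmU and fell by 1.43 ± 0.16 (adjusted p = 7.44e-07). NmU arrays were below all PBS arrays in both genes. Of 2 further Aak1 probe sets, 1 fell by 1.94 and 1 changed by -0.12 without a call. Lyst, a lysosomal trafficking gene, gave 57.2, 53.6, 36.6 and 12.5 in PBS and 3.8, 12.4 and 6.3 with NmU and changed by -2.16 ± 0.45, or by -2.65 without PBS 4, whose signal lay next to that of NmU 2. Aspm, a spindle pole gene, gave 16.4, 22.1, 15.5 and 32.7 in PBS and 3.0, 3.3 and 3.7 with NmU; all 3 NmU arrays were below the floor, so its fall was at least 3.57-fold (adjusted p = 3.91e-05). Ptdss2, a phosphatidylserine synthase, and Nfia, a nuclear factor, fell by 1.83 ± 0.40 and 1.71 ± 0.26. Lyst was not called with only the 7 arrays in the model, nor were Aspm, Ptdss2 and Nfia with the floor raised to 20.2.

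The rest of these falls had larger errors. Slc6a12, a transporter, Pik3r2, a regulatory subunit of phosphoinositide 3-kinase, and Ly6d, a surface antigen, fell by 1.66 ± 0.47, 1.65 ± 0.32 and 1.63 ± 0.44. Ndrg2 fell by 1.56 ± 0.49, and it was the only gene of the 25 whose groups overlapped. Myo1f, a myosin, Dab2ip, which restrains Ras, and Ankrd46 fell by 1.37 ± 0.34, 1.37 ± 0.31 and 1.34 ± 0.35. Adam28, a metalloprotease, Maz, a zinc finger factor, and Gpx3, a glutathione peroxidase, fell by 1.33 ± 0.38, 1.32 ± 0.34 and 1.32 ± 0.39. Lppos and the sialyltransferase St6galnac6 fell by 1.31 ± 0.24 and 1.28 ± 0.34. Pik3r2, Ly6d, Ndrg2, Myo1f, Dab2ip, Ankrd46, Adam28, Maz, Gpx3, Lppos and St6galnac6 were not called with only the 7 arrays in the model, Ly6d, Maz and Gpx3 with arrays scaled to a common median, Slc6a12, Ly6d, Ndrg2, Ankrd46, Adam28 and Gpx3 with the floor raised to 20.2, Slc6a12, Ly6d, Ndrg2, Maz and Gpx3 with no filter on dim probe sets, Maz after quantile normalization, and Ly6d with array weights. Slc6a12 (adjusted p of up to 0.111) was lost without PBS 1, PBS 2, PBS 3, NmU 2 or NmU 3, Ly6d (adjusted p of up to 0.219) without PBS 1, PBS 2, NmU 1, NmU 2 or NmU 3, Ndrg2 (adjusted p of up to 0.16) without PBS 1, PBS 2, PBS 3, NmU 1 or NmU 3, and Myo1f (adjusted p of up to 0.13) without NmU 2. Dab2ip (adjusted p of up to 0.0604) and Ankrd46 (adjusted p of up to 0.159) were lost without NmU 3, Adam28 (adjusted p of up to 0.161) without PBS 1, NmU 1 or NmU 3, Maz (adjusted p of up to 0.185) without PBS 1, PBS 2, NmU 1 or NmU 2, and Gpx3 (adjusted p of up to 0.28) without PBS 1, PBS 2, PBS 3 or NmU 1. St6galnac6 (adjusted p of up to 0.109) was lost without NmU 1 or NmU 2.

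All calls among the mitosis and replication genes were falls, and the mean of each list was high on PBS 4. Of 38 mitosis and G2/M genes on the array 37 were tested; 13 fell, 0 rose, and the median was -0.38 (-0.24 without PBS 4). Relative to the mean of PBS 1 to 3, their mean log2 signal was 0.395 on PBS 4 and -0.19, -0.37 and -0.377 on the NmU arrays. Aurka, a kinase of spindle poles, gave 223, 203, 216 and 316 in PBS and 163, 134 and 125 with NmU and changed by -0.75 ± 0.11 (adjusted p = 4.98e-05), or by -0.61 without PBS 4. Plk1, a kinase of mitotic entry, gave 384, 308, 377 and 406 in PBS and 269.5, 215 and 215 with NmU and fell by 0.67 ± 0.11 (adjusted p = 0.000125), with -0.72 at its second probe set. In both genes every NmU array was below every PBS array. Prc1, a protein of the midzone spindle, fell by 0.91 ± 0.16, Aurkb, a kinase of chromosome segregation, by 0.82 ± 0.14, Ccnf, a cyclin-like F-box protein, by 0.72 ± 0.12 and Ect2, which starts cytokinesis, by 0.81 ± 0.21. Nusap1, a spindle gene outside this list, gave 325, 579, 675 and 529.6 in PBS and 184, 219 and 186 with NmU and fell by 1.38 ± 0.20, and its second, dimmer probe set changed by -0.97 without a call. Stil, a centriole gene, gave 64.4, 70.5, 53.7 and 46.6 in PBS and 17.3, 26.8 and 32.2 with NmU and fell by 1.24 ± 0.20. The number of mitosis genes called fell to 7 with a common median, 0 with only the 7 arrays, 7 without PBS 3 and 8 without NmU 3. Changes below 0 numbered 37 of 37 with all arrays and 34 of 37 without PBS 4. Among all 5681 genes they numbered 3162 and 3218. Aurka, Plk1, Prc1, Aurkb, Ccnf and Ect2 were not called with only the 7 arrays in the model, nor was Ect2 with arrays scaled to a common median or with no filter on dim probe sets or after quantile normalization. Ect2 (adjusted p of up to 0.154) was lost when any 1 array other than PBS 4 was left out.

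Of 46 DNA replication and G1/S genes on the array 43 were tested, of which 10 fell and 0 rose. Changes below 0 numbered 42 of 43 with all arrays and 39 of 43 without PBS 4. The median was -0.37 (-0.27 without PBS 4). Rbl1, a pocket protein that restrains E2F, stood out from the group. It gave 282, 336, 324 and 308 in PBS and 154, 147 and 137 with NmU and fell by 1.10 ± 0.09 (adjusted p = 1.47e-09), with PBS 4 in the middle of the PBS arrays. Gmnn, which blocks a second round of replication, and Tk1, thymidine kinase, fell by 0.65 ± 0.16 and 0.55 ± 0.11. The clamp loader subunits Rfc1 and Rfc2 fell by 0.65 ± 0.14 and 0.51 ± 0.13 and the polymerase subunit Pold1 by 0.49 ± 0.12. Pcna gave 2111, 2358, 2199 and 3039 in PBS and 2570.4, 2187 and 2132 with NmU and did not pass, and neither did Mcm5, at -0.43 ± 0.16. On PBS 4 the list lay 0.341 above PBS 1 to 3, and its part in these falls was not tested beyond the values without it. Only 1 gene was called with a common median, 1 with only the 7 arrays, 4 without PBS 3, NmU 2 or NmU 3 and 6 without PBS 1. Gmnn, Tk1, Rfc1, Rfc2 and Pold1 were not called with only the 7 arrays in the model or with arrays scaled to a common median, nor was Pold1 with the probe sets of a gene averaged. Gmnn (adjusted p of up to 0.118) was lost without PBS 2, PBS 3, NmU 1, NmU 2 or NmU 3, Rfc2 (adjusted p of up to 0.167) without PBS 1, PBS 3, NmU 1, NmU 2 or NmU 3, and Pold1 (adjusted p of up to 0.0909) without PBS 1, PBS 3, NmU 2 or NmU 3.

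Regulators of the G1 phase moved both ways. Of 22 on the array 19 were tested. Of these 2 rose and 4 fell, beside 4.12% and 5.79% of all genes, and the median was -0.31. Ccnd2, a D-type cyclin induced by growth signals, gave 546, 489, 452 and 417 in PBS and 982, 943 and 963 with NmU and rose by 1.02 ± 0.16 (adjusted p = 7.60e-05). Ccnd3, another D-type cyclin, gave 594, 593, 502 and 687 in PBS and 413, 297 and 417 with NmU and fell by 0.67 ± 0.12 (adjusted p = 0.000426). The NmU arrays lay above all PBS arrays for the first and below all of them for the second. Cdkn2c, an inhibitor of the kinases Cdk4 and Cdk6, gave 428, 420.4, 436 and 335 in PBS and 204, 212 and 216 with NmU and fell by 0.94 ± 0.12 (adjusted p = 5.73e-06). The inhibitor Cdkn2d fell by 0.42 ± 0.12 and the pocket protein Rbl2 by 0.64 ± 0.16, and E2f5 rose by 0.42 ± 0.13. Cdk4 and Cdkn1a did not pass, at -0.08 ± 0.10 and 0.41 ± 0.34. Ccnd3, Cdkn2d, Rbl2 and E2f5 were not called with only the 7 arrays in the model, Cdkn2d and E2f5 with arrays scaled to a common median, and E2f5 with no filter on dim probe sets. Cdkn2d (adjusted p of up to 0.107) and E2f5 (adjusted p of up to 0.129) were lost when any 1 array other than PBS 4 was left out, and Rbl2 (adjusted p of up to 0.053) without NmU 1.

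Among apoptosis regulators 35 were on the array and 30 tested. Of these 2 rose and 4 fell, beside 4.12% and 5.79% of all genes, and the median was -0.12. Apaf1, the core of the apoptosome, gave 128, 169.7, 144 and 125 in PBS and 72.5, 64.8 and 69.7 with NmU and fell by 1.03 ± 0.11 (adjusted p = 4.40e-07). Cflar, an inhibitor of caspase-8, gave 147, 165, 147 and 83.4 in PBS and 203, 267 and 288 with NmU and rose by 0.93 ± 0.19 (adjusted p = 0.00136). Neither gene had overlapping groups, and PBS 4 was the dimmest array for Cflar. Ddit4, an inhibitor of mTOR, gave 401, 591, 434 and 392 in PBS and 266, 250.1 and 216 with NmU and fell by 0.88 ± 0.14 (adjusted p = 5.11e-05). Gadd45b, a stress gene, rose by 0.66 ± 0.12, with 0.63 at its second probe set. Bnip3, a mitochondrial gene, and Casp2 fell by 0.66 ± 0.17 and 0.26 ± 0.08, and Bcl2l1 and Casp1 did not pass, at 0.29 ± 0.16 and -0.19 ± 0.14. Cflar, Bnip3 and Casp2 were not called with only the 7 arrays in the model, nor was Casp2 with arrays scaled to a common median or with the floor raised to 20.2 or with the probe sets of a gene averaged. Bnip3 (adjusted p of up to 0.0665) was lost without PBS 2 or NmU 3, and Casp2 (adjusted p of up to 0.133) when any 1 array other than PBS 4 was left out.

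Of the nucleolar and ribosome biogenesis genes 9 of 42 were higher. All 42 on the array were tested; 9 rose, 0 fell, and the median was 0.26 (0.33 without PBS 4). Rrs1, a ribosome assembly factor, gave 442, 402, 442 and 478 in PBS and 629, 584 and 579 with NmU and rose by 0.44 ± 0.08 (adjusted p = 0.000336). Nifk, a nucleolar protein, gave 219.5, 246, 272 and 349.6 in PBS and 395, 436 and 401 with NmU and rose by 0.62 ± 0.15 (adjusted p = 0.00582). Nip7, Rcl1, Pes1 and Imp4, further assembly factors, rose by 0.43 ± 0.13, 0.42 ± 0.11, 0.42 ± 0.12 and 0.40 ± 0.10, and of these 4 Rcl1 had overlapping groups. Ncl, nucleolin, gave 3339, 3259, 3085 and 5066 in PBS and 5069, 3884 and 4592 with NmU and did not pass with all arrays (adjusted p = 0.188), PBS 4 being as bright as the brightest NmU array. On PBS 4 the list lay 0.325 above PBS 1 to 3, inside the range of the NmU arrays (0.19 to 0.356). Calls numbered 2 with a common median, 0 with only the 7 arrays, 2 without PBS 2, 3 without NmU 1, 4 without NmU 2, 5 without PBS 3 and 6 without PBS 1 or NmU 3. Rrs1, Nifk, Nip7, Rcl1, Pes1 and Imp4 were not called with only the 7 arrays in the model, nor were Nip7, Rcl1, Pes1 and Imp4 with arrays scaled to a common median. Nip7 (adjusted p of up to 0.154) was lost without PBS 1, PBS 2, PBS 3, NmU 1 or NmU 2, Rcl1 (adjusted p of up to 0.0686) without PBS 2, PBS 3, NmU 1 or NmU 2, Pes1 (adjusted p of up to 0.155) without PBS 1, PBS 2, NmU 1, NmU 2 or NmU 3, and Imp4 (adjusted p of up to 0.0607) without PBS 2.

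In each metabolic and housekeeping group at most 2 genes were called. Of 21 tested polyamine, nucleotide and one-carbon genes 0 were called by limma (3 at an unadjusted p under 0.05), with a median of -0.01. Without PBS 4 alone 3 of these 21 were called higher after adjustment, and the median was 0.11. In glycolysis 1 of 19 was higher, the glucose transporter Slc2a3 (0.60 ± 0.17), while Ldha and Pkm did not pass, at -0.14 ± 0.12 and -0.22 ± 0.13. In cholesterol synthesis 2 of 18 were higher, the sterol enzymes Msmo1 (77, 84.9, 75.9 and 88.4 in PBS and 147, 188 and 142 with NmU, a rise of 0.95 ± 0.18) and Idi1 (0.76 ± 0.18). PBS 4 lay within the NmU range for Idi1. Of 25 genes of the unfolded protein and amino acid responses 1 was higher, the amino acid transporter chain Slc3a2 (0.53 ± 0.16), with Hspa5 at 0.19 ± 0.12 and not called. Of 24 chaperones 1 was lower, Dnajb1 (-0.38 ± 0.10). Of 36 oxidative phosphorylation genes 1 was lower, the succinate dehydrogenase subunit Sdha (-0.49 ± 0.12), of 21 cytosolic ribosomal proteins 1 was lower, Rpl22 (-0.68 ± 0.17), and of 31 proteasome subunits 1 was higher, Psmd8 (0.50 ± 0.12). The medians of these last 3 groups were 0.00, 0.01 and 0.09, and their shares called were below the 4.12% and 5.79% of all genes. The shares called higher in glycolysis and in cholesterol synthesis were above the 4.12%. Slc2a3, Idi1, Slc3a2, Dnajb1, Sdha and Psmd8 were not called with only the 7 arrays in the model, Slc3a2, Dnajb1, Sdha and Rpl22 with arrays scaled to a common median, Dnajb1 after quantile normalization, and Rpl22 with the probe sets of a gene averaged. Slc2a3 (adjusted p of up to 0.0645) was lost without PBS 1, PBS 2, NmU 1 or NmU 3, Slc3a2 (adjusted p of up to 0.123) without PBS 1, PBS 2, PBS 3, NmU 1 or NmU 2, Dnajb1 (adjusted p of up to 0.147) without PBS 1, PBS 3, NmU 1, NmU 2 or NmU 3, and Sdha (adjusted p of up to 0.0628) without PBS 2 or NmU 3. Psmd8 (adjusted p of up to 0.0885) was lost without PBS 2 or NmU 2.

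Interferon-induced genes depended on PBS 4. Of 31 on the array 28 were tested, and 2 rose and 2 fell, beside 4.12% and 5.79% of all genes. The median was 0.27 with all arrays and 0.06 without PBS 4, on which the mean log2 signal of the list was -0.818 relative to PBS 1 to 3. With all arrays alone 5 were higher. Irf8, a factor of the interferon regulatory family, gave 42.3, 43.6, 36 and 33.4 in PBS and 109, 99.2 and 108 with NmU and rose by 1.45 ± 0.17 (adjusted p = 8.45e-07), or by 1.38 without PBS 4. Ifi202b, an interferon-induced DNA sensor gene, gave 719.5, 746, 676 and 212 in PBS and 946, 1288 and 1078 with NmU and rose by 1.06 ± 0.27, or by 0.62 without PBS 4. PBS 4 was the lowest array for both, slightly for Irf8 and by far for Ifi202b. Isg15, a ubiquitin-like protein, gave 2796, 2447, 2648 and 942 in PBS and 2819.5, 3448 and 3772 with NmU and was not called. Psmb8, a subunit of the immunoproteasome, and Tap1, the peptide transporter, fell by 0.39 ± 0.09 and 0.38 ± 0.12. Both also belong to the antigen presentation list, where they were the 2 called of 14 tested genes and where 0 were called with a common median, with H2-K1 at 0.06 ± 0.12 and H2-D1 at -0.10 ± 0.11. Ifi202b, Psmb8 and Tap1 were not called with only the 7 arrays in the model, Psmb8 and Tap1 with arrays scaled to a common median, and Tap1 with no filter on dim probe sets. Ifi202b (adjusted p of up to 0.0573) was lost without NmU 2, and Tap1 (adjusted p of up to 0.174) when any 1 array other than PBS 4 was left out.

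**Figure D4:**
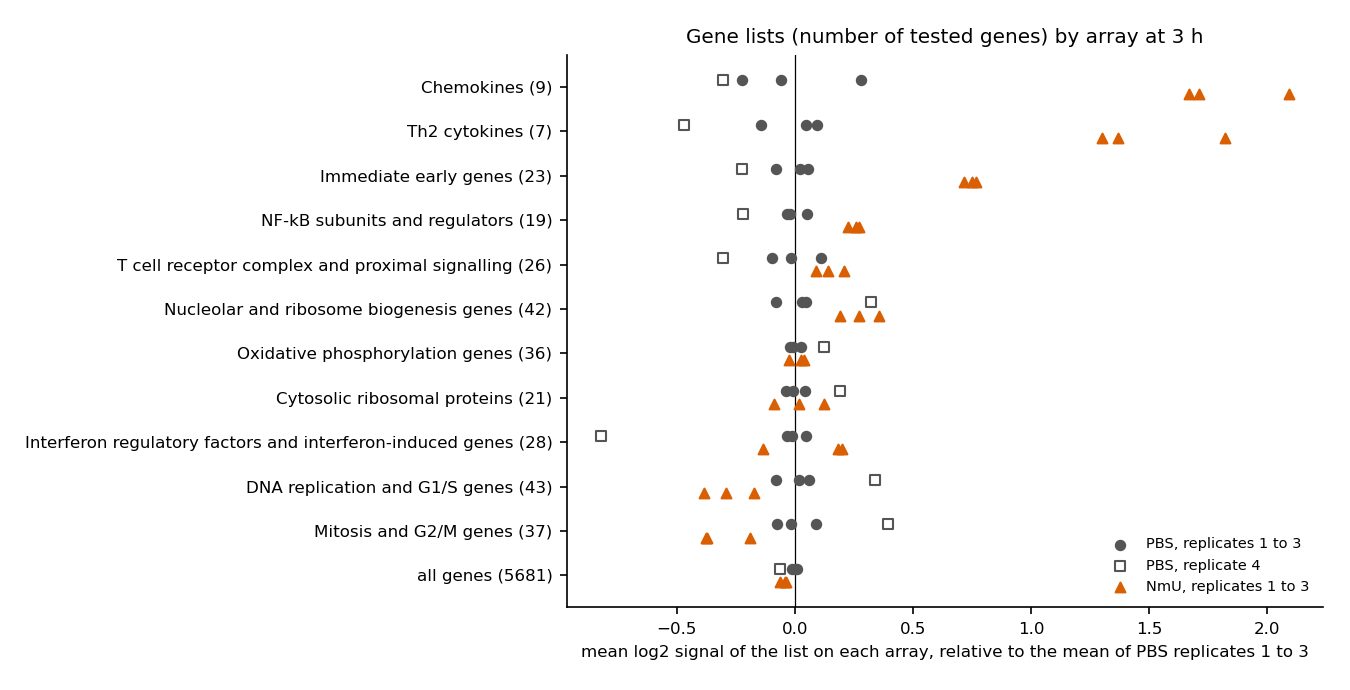
Mean log2 signal of 11 gene lists and of all 5681 tested genes on each array at 3 h, relative to the mean of PBS replicates 1 to 3 (horizontal axis); filled circles are PBS replicates 1 to 3, open squares PBS replicate 4 and triangles the 3 NmU arrays, with the number of tested genes in parentheses. The NmU arrays lie far to the right for chemokines (1.67 to 2.09) and Th2 cytokines (1.3 to 1.82), and PBS replicate 4 lies to the right of the other PBS arrays in both cell cycle lists and to the left in interferon-induced genes.

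Nmur1, the receptor of NmU, gave 266, 253, 247 and 88.1 in PBS and 83.1, 154 and 144 with NmU. PBS 4 was far below the other PBS arrays and inside the NmU range. The change was -0.67 ± 0.27 with all arrays (adjusted p = 0.106) and -1.06 without PBS 4 (adjusted p = 0.000461), so it did not pass in both and was not called.

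Markers of T cells were present in both groups. Their summed signal over 10 genes on the array ran from 6518.9 to 7444.9 in PBS and from 7589.6 to 8726.9 with NmU, and 2 of the 10, Cd5 and Thy1, averaged below the filter of 20.2. Of the 8 tested, Zap70 alone was called. Sums for other cell types were 43.2 to 84.6 and 41.9 to 58.4 for 8 cytotoxic T and natural killer genes, which all averaged below the filter, and 189.9 to 258.8 and 216.1 to 228.4 for 10 B cell genes. They were 80.5 to 123.9 and 110.5 to 148.1 for 11 mast cell and basophil genes, 125.3 to 153.3 and 164.8 to 203.5 for 8 neutrophil genes and 157.5 to 241.7 and 122.4 to 170.2 for 4 erythroid genes. Over 16 macrophage, monocyte and dendritic cell genes the sums were 1490.2 to 2488.8 and 1785.1 to 2200.6. Ctss, a protease also made by lymphoid cells, gave the most (mean signal 1496), followed by Mpeg1 (241), Itgax (82) and Cd14 (72). Of the 16, 7 averaged below the filter, among them Lyz2 and Itgam, which averaged below the floor. Of these other lists, limma called 0 genes (3 of the 22 tested at an unadjusted p under 0.05), and the part of the higher neutrophil sum in the results was not tested.

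The 3 h effect was then compared with the effect at each other time, as the difference of the log2 fold changes. It was above the 0.8 h effect in 79 genes (1.39%) and below it in 121 (2.13%), above the 6 h effect in 18 (0.317%) and below it in 27 (0.475%), and above the 12 h effect in 75 (1.32%) and below it in 93 (1.64%). By probe set, 248, 55 and 211 differed from 0.8, 6 and 12 h. Leaving out NmU 3 left 26 from 6 h and 139 from 12 h, and leaving out NmU 1 left 36 from 6 h. The fit without PBS 4, where a pass in that fit alone was enough, gave 382 from 0.8 h and 86 from 6 h. Of the differences called in named genes, 33 of 66 from 0.8 h, 18 of 25 from 6 h and 22 of 49 from 12 h were lost under at least 1 of 9 alternatives. Genes of secreted products were among those with a greater effect at 3 h than at 0.8 h. Ccl1 changed by 0.74 ± 0.27 at 0.8 h, 2.10 ± 0.27 at 6 h and 1.23 ± 0.27 at 12 h, so that its 3 h effect was greater than at 0.8 h by 2.98 ± 0.40 (adjusted p = 6.94e-05) and than at 12 h by 2.49 ± 0.40 (adjusted p = 0.000537). Il4 changed by 1.82 ± 0.11, 1.89 ± 0.11 and 1.21 ± 0.11 at those times, with a 3 h effect greater than at 0.8 h by 0.87 ± 0.16 (adjusted p = 0.00168) and than at 12 h by 1.49 ± 0.16 (adjusted p = 4.16e-06). Its greater effect than at 6 h (0.81 ± 0.16) was lost without NmU 1 (adjusted p = 0.0548). Ccl7 changed by 3.19 ± 0.35, 2.02 ± 0.35 and 0.82 ± 0.35, and its 3 h effect was greater than at 12 h by 3.69 ± 0.51 (adjusted p = 0.000102) and than at 6 h by 2.49 ± 0.51, the latter lost without NmU 1 (adjusted p = 0.051).

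Il5 took another course. It changed by 0.10 ± 0.24 at 0.8 h and by 2.52 ± 0.24 and 2.83 ± 0.24 at 6 and 12 h, and the 3 h effect was greater than at 0.8 h by 1.64 ± 0.35 (adjusted p = 0.00669), while its difference from the later times was not called. Like Ccl1, Il4 and Ccl7, the genes Tnfsf8, Irf8 and Crem had their highest estimated effect at 3 h. For Ccl7 the difference from 0.8 h (1.32 ± 0.51, adjusted p = 0.177) was not called. Nor was the difference of Ccl1 from 6 h (1.62 ± 0.40, adjusted p = 0.0551). Tnfsf8 changed by -0.13 ± 0.20, 0.62 ± 0.20 and 0.30 ± 0.20 at the other times, and its 3 h effect was greater than each, by 2.36 ± 0.29, 1.61 ± 0.29 and 1.93 ± 0.29 (adjusted p = 3.01e-05, 0.00538 and 0.000302). Irf8 changed by 0.30 ± 0.16, 0.06 ± 0.16 and 0.17 ± 0.16, and its 3 h effect was greater than each, by 1.15 ± 0.23, 1.39 ± 0.23 and 1.28 ± 0.23 (adjusted p = 0.00367, 0.00221 and 0.00156). These 6 differences were called under all 9 of these alternatives, which left out single 3 h arrays, changed the scaling or raised the floor. Crem exceeded its 6 h and 12 h effects by 1.21 ± 0.16 and 1.38 ± 0.16 (adjusted p = 0.000455 and 1.45e-05). Its difference from 0.8 h was called but lost in 4 of the 9 alternatives.

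Of the 23 tested immediate early genes 7 had a 3 h effect below that at 0.8 h, 1 (Btg1) had one above it, lost in 5 of the 9 alternatives, and 15 were not called. Egr2 changed by 4.54 ± 0.35 at 0.8 h, and the 3 h effect differed from it by -2.39 ± 0.51 (adjusted p = 0.00653). Egr1 and Fos changed by 4.57 ± 0.44 and 4.15 ± 0.45 at 0.8 h, with differences of -2.98 ± 0.65 and -2.96 ± 0.66 (adjusted p = 0.00822 and 0.00916). Gadd45b was lower with NmU at 0.8 h (-0.69 ± 0.11, adjusted p = 0.000305) and higher at 3 h, a difference of 1.35 ± 0.16 (adjusted p = 2.54e-05). Cxcr4 changed by 0.61 ± 0.24 at 0.8 h and was lower at 3 h, a difference of -1.86 ± 0.36 (adjusted p = 0.00273).

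The largest falls and rises were chosen on their 3 h effect, so their counts against other times are a description with no test. Of the 25 largest falls 16 had a 3 h effect below that at 0.8 h, 6 below that at 6 h and 11 below that at 12 h. Myb changed by -0.08 ± 0.12 at 0.8 h, and the 3 h effect differed from it by -1.68 ± 0.18 (adjusted p = 8.03e-06). It changed by -0.76 ± 0.12 and -0.76 ± 0.12 at 6 and 12 h, from which the 3 h effect differed by -0.99 ± 0.18 and -1.0 ± 0.18 (adjusted p = 0.00538 and 0.00187), the first of these lost with a common median. Fli1 and Rbl1 changed by 0.09 ± 0.13 and -0.10 ± 0.08 at 0.8 h, with differences of -1.35 ± 0.19 and -1.0 ± 0.12 (adjusted p = 0.00018 and 1.77e-05), and Apaf1 by 0.16 ± 0.11, a difference of -1.19 ± 0.16 (adjusted p = 5.78e-05). Rasa3, a Ras GTPase-activating protein, gave 167, 195, 167 and 218 in PBS and 98.5, 77 and 79.4 with NmU at 3 h. Its fall of 1.14 ± 0.14 differed from the effects at 6 and 12 h (0.14 ± 0.13 and 0.11 ± 0.13) by -1.28 ± 0.19 and -1.24 ± 0.19 (adjusted p = 0.00055 and 0.000302). Of the 25 largest rises 10 had a 3 h effect above that at 0.8 h and 1, Egr2, below it, with 8 above that at 6 h and 14 above that at 12 h.

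**Figure D5:**
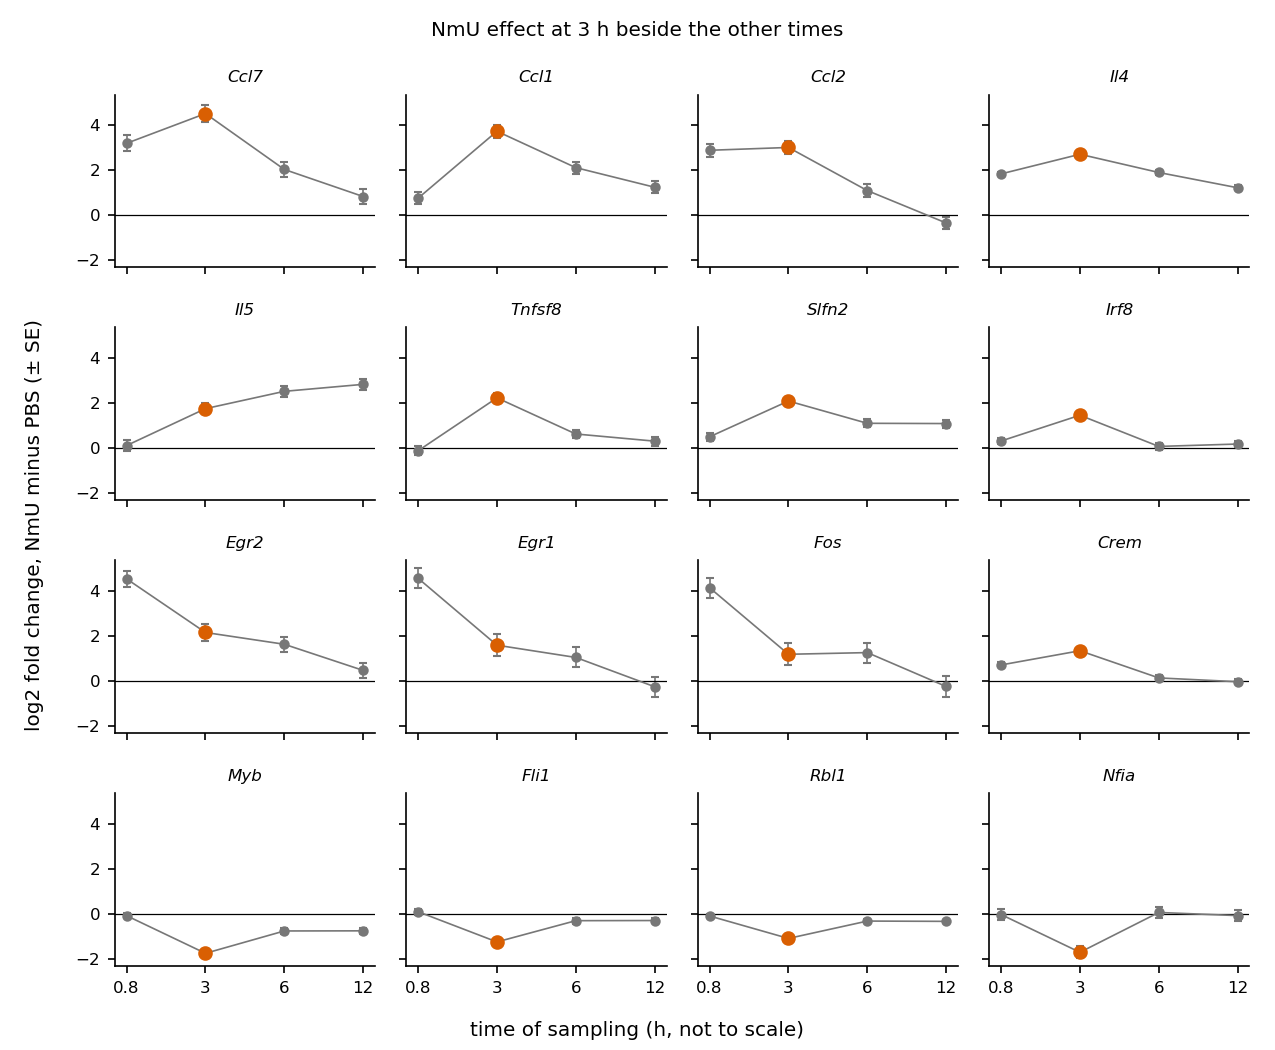
Log2 fold change of NmU over PBS (vertical axis, with SE bars) at each sampling time (horizontal axis, not to scale) for 16 genes, with the 3 h value in orange. Ccl7, Ccl1, Ccl2, Il4, Tnfsf8, Slfn2, Irf8 and Crem have their highest value at 3 h and Myb, Fli1, Rbl1 and Nfia their lowest. For Ccl2 the margin over 0.8 h is 0.13. Differences of Ccl2 and Ccl7 from 0.8 h and of Ccl1 and Slfn2 from 6 h were not called. Egr2, Egr1 and Fos are highest at 0.8 h, and Il5 is highest at 12 h.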

How the data were processed

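Total RNA of 31 samples was hybridised to 1 array each, per the labels, and groups and replicate numbers come from the sample titles. The deposited values were probe set intensities on a linear scale; how they were scanned, summarised and scaled is not given in the sources used here. The values show that arrays had been scaled to a common mean, and no further normalization was applied. Before log2, a floor of 5.8 was set, at the 20th percentile of the table. Of 12488 probe sets 66 controls were left out, and a probe set was kept if the mean log2 value of either group at 3 h was above that of 20.2, the 40th percentile. This kept 7603 probe sets for 5681 genes. The probe table paired 10833 probe sets with 1 symbol, 396 with several and 1193 with none. For genes with several, the brightest on average over the 31 arrays was taken.

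A model with 8 group means was fitted with limma 3.58.1 in R 4.3.3 on all 31 arrays (23 residual and 2.9 prior degrees of freedom) and without PBS replicate 4 at 3 h (22 and 2.79). P-values were two-sided and Benjamini-Hochberg adjusted over the 7603 probe sets. A call needed an adjusted p under 0.05 in both fits and the same direction, and differences between times were contrasts of the same fits. A test of 3 arrays against 4 by exact permutation cannot go below 0.0571 and was not used. The procedure was tested on simulated data. Alternatives changed the scaling, floor, filter, model and probe set rule or left out 1 array at a time.

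The members compared, the 31 gene lists and the 7 marker lists were chosen with earlier results of these data known. Genes named are the 25 with the largest rise and fall, the tested Th2 cytokines and chemokines, up to 6 called and 2 uncalled members of each other list, the 8 largest differences between times in each direction, Il4, Ccl7, Ccl1, Myb and Nmur1. Other names were given after their values were seen. Equal replicate numbers were not treated as pairs, and the labels do not say whether they are. Deviations of same-numbered arrays correlated at -0.12, 0.0577 and 0.0875 at 3 h and at -0.225 to 0.208 at the other times. With so few arrays a group these values cannot exclude pairing. No 2 arrays held identical values. Promoter windows came from RefSeq on GRCm38.p6.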

Additional observations from a re-analysis of the deposited data

Results flagged for a closer look

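Single PBS arrays stood apart in 19 of the 203 genes named. The measure is the gap of the most extreme of the 4 PBS arrays to its neighbour, divided by the range of the group, and chance alone picks out about 1 in 20 groups. PBS replicate 4 was the low array in 12 genes: Ccl7 (0.913, signal 13.8), Bcl6 (0.918, signal 9.1), Il16 (0.957, signal 56.9), Ccr1 (0.928, signal 188), Bcl10 (0.898, signal 287), Icos (0.833, signal 1669.5), Cdkn2c (0.858, signal 335), Cdkn2d (0.919, signal 290.2), Cflar (0.833, signal 83.4), Ifi202b (0.922, signal 212), Isg15 (0.877, signal 942) and Nmur1 (0.933, signal 88.1). It was the high array in Stmn1 (0.873, signal 1124) and Ncl (0.841, signal 5066). Elsewhere replicate 1 was low in Nfkb2 (0.839, signal 43.2) and Fyn (0.962, signal 67.3), and replicate 2 was high in Pik3r2 (0.934, signal 104) and low in Dnajb1 (0.88, signal 142) and Fos (0.834, signal 20.5).

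The NmU effect at 3 h differed from that at another time by the limma contrast in 48 pairs of gene and time among the largest differences, given here as the 3 h effect minus the other on the log2 scale. Against 0.8 h it was greater in Ccl1 (2.98), Tnfsf8 (2.36), Cd44 (1.84), Il5 (1.64), Slfn2 (1.59), Alcam (1.52), Srxn1 (1.5) and Mptx1 (1.48), and lower in Egr1 (-2.98), Fos (-2.96), Lyst (-2.78), Ly6d (-2.62), Egr2 (-2.39), Klf5 (-2.28), Mef2c (-2.16) and Ptdss2 (-2.09). The effects at 6 h were exceeded in Ccl7 (2.49), Ccl2 (1.92), Tiparp (1.78), Tnfsf8 (1.61), Irf8 (1.39), Crem (1.21), Nab2 (1.20) and Srxn1 (1.16), and the 3 h effect was the lower in Nfia (-1.77), Adgrg1 (-1.36), Rasa3 (-1.28), Stil (-1.27), Aak1 (-1.20), Pstpip1 (-1.14), Pitpnc1 (-1.08) and Rgs10 (-1.0). With its sign, the 3 h effect was above that at 12 h in Ccl7 (3.69), Ccl2 (3.36), Skil (2.67), Ccl1 (2.49), Tnfsf8 (1.93), Ctla4 (1.74), Ccr8 (1.52) and Il4 (1.49). It was below that at 12 h in Lyst (-3.01), Klf5 (-2.34), Ptdss2 (-2.33), nonagouti (a) (-1.95), Aspm (-1.74), Lppos (-1.69), Nfia (-1.63) and Tm7sf3 (-1.60). Of the 48, 22 were lost under at least 1 of the 9 alternatives. They were lost in 5 for Ptdss2 and Klf5 against 0.8 h, Tiparp and Rgs10 against 6 h and Ctla4, Klf5 and Skil against 12 h. They were lost in fewer for Mef2c, Ly6d and Mptx1 against 0.8 h, Ccl7, Ccl2, Srxn1, Nfia, Adgrg1, Stil and Pstpip1 against 6 h and Aspm, Ptdss2, Nfia, nonagouti and Tm7sf3 against 12 h. 

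Of these, Egr1, Fos, Klf5, Mptx1, Rgs10, Skil, nonagouti and Tm7sf3 were not called at 3 h itself. Skil, a corepressor of Smad factors, gave 14.9, 33.7, 11.5 and 14 in PBS and 45.3, 35.3 and 29 with NmU at 3 h, a change of 1.09 ± 0.46, against -1.58 ± 0.43 at 12 h. Klf5, a zinc finger factor, gave 22, 26.3, 27.1 and 15.3 in PBS and 10.6, 4.8 and 16.7 with NmU, a change of -1.13 ± 0.44, against 1.15 ± 0.41 at 0.8 h and 1.21 ± 0.41 at 12 h. The groups overlapped at 3 h for both. Rgs10, which shortens G protein signals, changed by 0.31 ± 0.15 at 3 h and by 1.31 ± 0.14 at 6 h.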

How the results depend on the processing

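None of the 132 named genes called changed direction under any alternative run. The balance of calls did: with a common median the higher calls went from 44.7% to 57.4% of all calls. List medians near 0 also changed sign, such as those of the polyamine list (-0.01 to 0.11) and the T cell markers (0.05 to -0.09) without PBS replicate 4. With arrays scaled to a common median 201 probe sets were lower, and 158, 27 and 119 differed from 0.8, 6 and 12 h (388, 248, 55 and 211 as deposited); this moved the median gene from -0.04 to -0.01. Array weights gave 483 higher and 632 lower, with 435, 137 and 380 differences, PBS replicate 4 having the lowest weight (0.272). Asking for at least 1.5-fold left 196 higher and 185 lower, and a model of only the 7 arrays 118 and 68. With 1 array left out the counts ran from 219 to 406 higher and 259 to 538 lower. The differences ran from 169 to 382, 26 to 86 and 139 to 288. The highest of each range came from the fit without PBS replicate 4. That fit, array weights and the replicate block below needed a pass in a single fit, where the other counts needed both fits. The part of this looser rule in the shifts, and other causes, were not tested. A replicate block, which pairs equal replicate numbers within a time, gave 369 higher, 502 lower and 316, 72 and 238 differences. It moved no count by over 1.5 times, and 9 of the 132 named genes called lost their call under it.

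Of these 132 genes 53 were called under every alternative in which they were tested. The other 79 lost a call in at least 1: 73 with only the 7 arrays, 24 with a common median, 12 with the floor at 20.2, 11 with no filter, 5 with probe sets averaged, 4 after quantile normalization, 1 with array weights, and between 20 and 27 without each of the 6 arrays other than PBS replicate 4. A floor at 1 lost 0. A filter at 100 also lost 0, but called genes too dim for that filter were not tested there and could not count as lost. Of 71 named genes not called 16 were called somewhere. Between 18.3% and 21.4% of probe sets lay at the floor on these arrays, which limits dim genes, and 3 and 4 arrays a group limit the precision.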
